A study of Mus musculus with 6 samples.

Results

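Long non-coding RNA (lncRNA) genes are transcribed into long RNAs that are not translated. The regions described here are the methylated-DNA peaks whose midpoint lay in the body of such a gene, as annotated by RefSeq on GRCm38, and in no protein-coding gene body. They numbered 4573, out of 83968 peaks on chromosomes and 84111 in all in the copy of the list analysed here (5.45% of the chromosome peaks). That copy is cut off part way along chromosome 6 and covers chromosomes 1 to 5, part of 6, and 10 to 19, so every count below is for that sequence. The remaining chromosomes were not analysed here. A further 1844 peaks lay in a lncRNA body and a protein-coding body at once and were left out.

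The study took primary chondrocytes from mouse knee articular cartilage at postnatal days 3 to 5 and grew them in culture. The 3 control cultures carried the genotype Dnmt1 flox, and the 3 conditional knockout (cKO) cultures carried Prx1-Cre;Dnmt1 flox/flox. Both groups thus carry a floxed Dnmt1 allele, and Prx1-Cre, which is active in limb mesenchyme, was named in the cKO group alone. Methylated fragments were captured with MBD2 and sequenced (MBD-seq). The labels do not say whether a culture came from 1 animal or from several, and a DNA assay holds no marker levels against which to check the cell type. The list was called on 3 merged datasets that its peak names do not assign to a group, so it holds no value per culture. The list is titled as regions of Dnmt1-mediated DNA methylation. Whether datasets of either group served as the caller's background is not stated in the sources used here. It is therefore not known whether the peaks themselves rest on a contrast of the groups. Nothing below sets control against cKO, and no test was made. Intervals are 95% and cover counting error only, and they are too narrow where neighbouring peaks depend on each other.

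Dnmt1 copies CpG methylation onto newly made DNA strands. MBD2 binds methylated CpGs, so a region gives a peak only if it holds enough methylated CpGs. Sequence with few CpGs may therefore give no peak even where it is methylated. In most tissues gene bodies are methylated, whereas CpG-rich promoters, where CpGs are dense, are usually free of methylation. lncRNA genes are shorter than protein-coding genes, and many of their models rest on few transcripts.

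Promoter sequences show how lncRNA starts differ in CpG number. The first 3 below belong to lncRNA genes whose start lay under 1 of the 4573 peaks, and Tug1, a widely expressed lncRNA, was added after the values were seen as a CpG-rich start with no peak. They are RefSeq sequences of GRCm38.p6 from 250 bp before to 50 bp after the start, 5′ to 3′ on the strand of the gene. Capitals mark every CpG (the letters CG, which read the same on both strands).
Meg3, chr12:109540746-109541045, plus strand, 13 CpGs: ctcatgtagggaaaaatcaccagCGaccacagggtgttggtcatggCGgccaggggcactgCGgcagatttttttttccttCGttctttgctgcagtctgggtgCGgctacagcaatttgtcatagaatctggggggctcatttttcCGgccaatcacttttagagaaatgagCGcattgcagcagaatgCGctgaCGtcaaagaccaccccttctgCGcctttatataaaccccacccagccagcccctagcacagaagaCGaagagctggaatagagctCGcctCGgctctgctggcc
LOC115490388, chr6:3182866-3183165, plus strand, 15 CpGs: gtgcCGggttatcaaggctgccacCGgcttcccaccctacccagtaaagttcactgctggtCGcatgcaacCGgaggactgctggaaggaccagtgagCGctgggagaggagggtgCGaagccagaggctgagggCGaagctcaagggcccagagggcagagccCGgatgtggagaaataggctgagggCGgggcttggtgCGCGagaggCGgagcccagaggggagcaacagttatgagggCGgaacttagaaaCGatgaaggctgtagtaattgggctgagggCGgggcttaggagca
Gm40687, chr10:70291064-70291363, plus strand, 8 CpGs: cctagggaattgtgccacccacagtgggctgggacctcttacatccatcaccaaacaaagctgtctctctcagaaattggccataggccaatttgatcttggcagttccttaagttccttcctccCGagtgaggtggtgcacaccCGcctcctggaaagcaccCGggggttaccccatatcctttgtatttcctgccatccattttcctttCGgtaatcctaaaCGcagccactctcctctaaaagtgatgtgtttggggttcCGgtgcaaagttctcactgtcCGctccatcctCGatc
Tug1, chr11:3648765-3649064, minus strand, 37 CpGs: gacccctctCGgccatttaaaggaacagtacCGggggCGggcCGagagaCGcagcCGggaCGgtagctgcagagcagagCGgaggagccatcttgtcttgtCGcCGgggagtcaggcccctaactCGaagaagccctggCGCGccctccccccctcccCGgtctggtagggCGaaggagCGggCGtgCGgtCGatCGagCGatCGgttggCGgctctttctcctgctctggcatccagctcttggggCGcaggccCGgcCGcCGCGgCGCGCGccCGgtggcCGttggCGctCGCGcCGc

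The peak over the Meg3 start ran from 109540559 to 109542402 on chromosome 12 and was 1844 bp wide. Its fold, the enrichment over background given by the authors' peak caller, was 12.8. The pileup (the reads stacked at the summit) and the background were recovered from each peak's fold and p-value, and here they were 159 and 11.5 reads. Over the LOC115490388 start, the pileup was 428 and the background 28.2 reads (fold 14.7). At the Gm40687 start, which lies inside the annotated gene, it was 228 reads over 6.37 (fold 31.1). That last background was the lowest in the list and was shared by most peaks. The 3 starts were thus all covered, over the lowest background in Gm40687 and raised ones in Meg3 and LOC115490388.

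The 10 lncRNA genes with most peaks per length were picked from 172 genes that had at least 5 such peaks and at least 10 kb of body outside protein-coding genes. They held between 2.46 and 4.64 peaks per 10 kb, whereas the median of the 172 genes was 0.809. Gm51627, a gene model on chromosome 1 (64956579 to 64967601) that overlaps Plekhm3, led with 5 peaks in 10.8 kb. Its folds from 5′ to 3′ on the chromosome were 25.5, 5.44, 8.79, 7.24 and 8.19, and all 5 peaks stood above the lowest background. Its highest pileup, 946 reads, was in the fourth peak, over a background of 130 reads.

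Next came A730018C14Rik on chromosome 12 (112411023 to 112423198), with 4.11 peaks per 10 kb. Its 5 peaks had folds of 23.6, 7.05, 11.5, 7.05 and 13.7, and every one was at the lowest background. Its neighbour E330035G20Rik (112391526 to 112405812) had 3.50 peaks per 10 kb, with folds of 18.9, 24.4, 17.9, 10.4 and 10.9 and again no raised background. These neighbours, which do not overlap, together held 10 peaks, and the nearest protein-coding gene to either was A530016L24Rik, 66196 bp from A730018C14Rik.

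A different kind of peak filled Scpep1os, the transcript named as opposite-strand to Scpep1 (chromosome 11, 88905928 to 88936061, 3.87 peaks per 10 kb). Its 7 peaks had folds of 26.3, 4.95, 7.41, 3.03, 4.95, 7.22 and 5.89, all over raised backgrounds that reached 162 reads. In AI506816 on chromosome 5 (23692261 to 23712667) the 5 folds were 23.4, 11.8, 3.42, 1.90 and 2.38. The last 3 of its peaks had 433, 316 and 365 reads over 126, 166 and 153 reads. In these 3 peaks the pileups were paired with backgrounds far above the lowest, and the folds, which are their ratio, were low.

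LOC115490388 on chromosome 6 (3183116 to 3198511, 3.90 peaks per 10 kb) mixed both kinds. Its 6 folds were 14.7, 29.0, 13.2, 10.96, 3.42 and 6.73, of which the second alone was at the lowest background. Gm33591 on chromosome 5 (24757042 to 24785800, 3.58 peaks per 10 kb) held the most of the 10 genes, with 10 peaks of folds from 4.30 to 28.8 and 4 raised backgrounds. The remaining genes were Gm7967 on chromosome 1 (2.80 peaks per 10 kb), Gm40687 on chromosome 10 (2.68) and Gm33484 on chromosome 12 (2.46). Gm40687 had its highest peak at the start shown above, and its other 4 folds ran from 7.87 to 10.99.

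**Figure D1:**
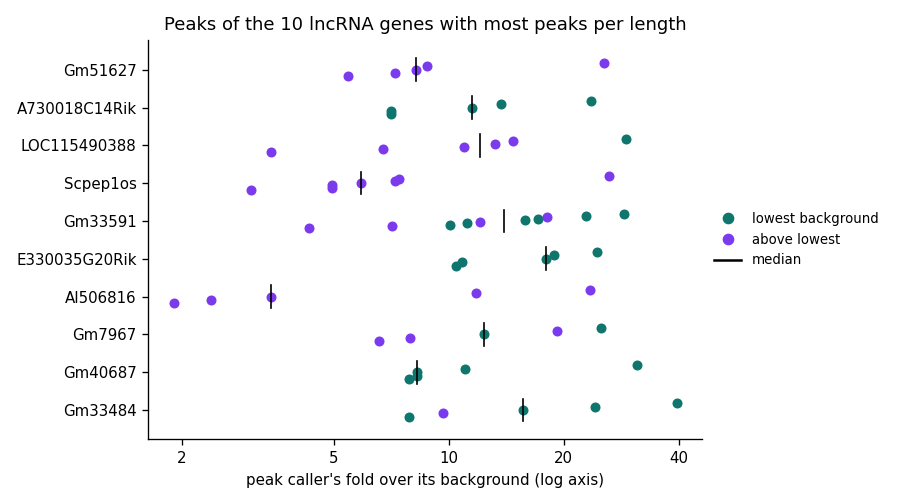
Each point is 1 peak of the 10 lncRNA genes with most peaks per length, placed by the caller's fold (log axis). Green points stood at the lowest background and purple points above it, and a black line marks each gene's median; folds run from 1.90 to 39.6, and the lowest are in AI506816 and Scpep1os.

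Together the 10 genes held 58 peaks, of which 30 (51.7%) stood above the lowest background. Among all 4573 lncRNA peaks that share was 24.2%, and among all chromosome peaks it was 25.0%. In 13 of the 58 peaks (22.4%) the background reached at least 5 times that level, spread over 7 of the 10 genes, and among all lncRNA peaks 9.03% did. A gene with a run of close peaks ranks high by construction, so these shares describe the chosen genes only.

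Protein-coding genes reached higher densities under the same minimums. The 3 densest of 3045 were Cul7, a cullin scaffold of ubiquitin ligases (7.84 peaks per 10 kb, 11 peaks), the anion exchanger gene Slc4a3 (6.72, 9 peaks) and Npepl1, an aminopeptidase-like gene (6.47, 8 peaks). The median over the 3045 genes was 1.11 peaks per 10 kb. Raised backgrounds were found in 2 of the 11 Cul7 peaks and in 1 peak each of Slc4a3 and Npepl1.

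By number, A930011G23Rik on chromosome 5 (99297244 to 99729060) led with 23 peaks over 432 kb, or 0.533 peaks per 10 kb. Its median fold was 9.50, and its highest-fold peak, at 99407149 to 99407850, had a fold of 37.3. Gm16630 on chromosome 6 (17 peaks, median fold 16.9) and Gm29536 on chromosome 1 (16 peaks, 17.4) followed. Lncpint, a p53-responsive lncRNA, had 15 peaks over 125 kb on chromosome 6 with folds from 6.24 to 33.6, and 14 of its 15 peaks were at the lowest background. The other 6 genes each had 12 peaks: D130009I18Rik, Gm29677, Gm30382, Gm31615, Gm31724 and Gm36684. The 10 genes with most peaks and the 10 densest shared no gene. Of the 143 peaks in the former, 30 (21.0%) had a raised background.

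The 5 lncRNA peaks with the highest fold lay in 5 genes. The first, in Gm52861 on chromosome 6 (47745590 to 47746388), had a fold of 109, from 1886 reads and a background of 16.3. Gm36684 on chromosome 17 came next with 769 reads over 13.3 (13193522 to 13194159, fold 53.9). Gm11166, on the same chromosome, had 387 reads over the lowest background of 6.37 (13096603 to 13097175, fold 52.6). The peak of 4930586N03Rik on chromosome 13 (23329326 to 23329996) had a fold of 50.7 from 495 reads and a background of 8.78. The fifth was 4930481A15Rik on chromosome 19 (5415385 to 5416006), with 351 reads over 6.37 and a fold of 47.8. The first stood well apart, and the other 4 lay between 47.8 and 53.9.

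Genes of known function were taken from a list of 101 symbols in 5 groups, of which 71 were lncRNA genes on covered sequence with body outside protein-coding genes. At least 1 peak lay in 33 of the 71 (46.5%), against 31.9% of all 7819 lncRNA genes with such body and 43.0% of genes of every biotype. The listed genes were not matched for length to the rest. Median body ran from 2.84 kb in hosts of small nucleolar RNAs to 23.9 kb in the imprinted group, against 8.23 kb over all lncRNA genes. The group counts below are to be read beside the 31.9% share and these lengths.

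Imprinted lncRNAs are expressed from only the maternal or the paternal chromosome, and 4 of 5 on covered sequence had a peak. Meg3, expressed from the maternal chromosome, had 5 peaks with folds of 12.8, 7.60, 12.6, 30.3 and 23.5 (chromosome 12, 109540996 to 109571729). Rian and Mirg, which lie beyond it and host small RNAs, had 2 peaks each, with folds of 14.9 and 19.1 in Rian and of 13.6 and 6.24 in Mirg. Several of these peaks covered microRNA genes: Mir770 in Meg3, Mir341 and Mir370 in Rian, and Mir409, Mir412 and Mir369 under 1 peak of Mirg. Airn, whose transcription silences Igf2r, had 1 peak outside Igf2r (chromosome 17, 12769657 to 12770120), with 178 reads over a background of 37.1. Dio3os had none.

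Nuclear and scaffold lncRNAs had a peak in 6 of 12 genes. Besides Lncpint they were Pvt1, the neighbour of Myc, with 6 peaks over 222 kb, and Trp53cor1, the p53-induced transcript beside Cdkn1a, with 5 peaks in 21.7 kb. Folds in Trp53cor1 were 9.22, 7.05, 19.7, 7.60 and 8.82, all at the lowest background. Morrbid had 5 peaks, Neat1, the scaffold of paraspeckles, had 2 with folds of 9.22 and 12.8, and Miat had 1. Malat1, Norad, Tug1, Oip5os1, Dleu2 and Dreh had none.

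Hosts of small nucleolar RNAs, which are short genes with a median of 2.84 kb, had a peak in 2 of 17 genes. Those were Snhg17 (fold 36.5) and Snhg11 (fold 14.5), and Gas5, Zfas1 and the other hosts had none. In the group listed as microRNA hosts 4 of 9 had a peak: Mir99ahg with 2 in 229 kb, and Carmn, Mirt1 and Mir670hg with 1 each. Mirt1 was listed in this group although its name does not mark a microRNA host. Per length, this listed group, Mirt1 included, held 12.4 peaks per Mb, from 5 peaks, against 32.6 in all lncRNA bodies. The 2 peaks in snoRNA hosts lay in 56.7 kb of body in all, or 35.3 per Mb. Imprinted lncRNAs held 59.7 peaks per Mb, nuclear and scaffold lncRNAs 53.7, and the developmental group described next 54.4.

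The group listed as homeobox and developmental antisense transcripts had a peak in 17 of 28 genes (60.7%, against 31.9% of all lncRNA genes). Not all of them lie beside a developmental regulator. The nearest protein-coding gene was Nedd1 for Rmst, 519567 bp away, D430019H16Rik for Tunar, 69924 bp away, and Myh7 for Mhrt. Median body in the group was 10.6 kb, against 8.23 kb over all lncRNA genes. In the HoxA cluster, Hoxaas2 had 3 peaks in 3.39 kb (folds 24.6, 9.09 and 10.2), Hoxa11os had 2 (16.01 and 13.9) and Hotairm1 had 2 (7.33 and 7.60). Halr1, Hotair and Hoxb5os had 1 each, while Hottip, Hoxaas3, Hoxb3os, Hoxd3os1 and Evx1os had none. Outside the Hox clusters Pax6os1 had 9 peaks, 6 of them over raised backgrounds, whereas the 7 peaks each of Otx2os1 and Tunar were all at the lowest. Sox2ot had 6 peaks, Nkx2-2os 4, Tbx3os1 3 and Rmst 2, and Foxd2os, Wt1os, Pantr1 and Tbx3os2 had 1 each. Dlx6os1, Six3os1, Vax2os, Lhx1os, Gata6os and Mhrt had none.

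Over the covered sequence of the 16 chromosomes, lncRNA bodies outside protein-coding genes came to 140 Mb and held 32.6 peaks per Mb. Protein-coding bodies held 56.1 peaks per Mb over 791 Mb, and the 1022 Mb in neither kind of body held 34.2. Density in lncRNA bodies was thus 0.580 of that in protein-coding bodies (interval 0.563 to 0.598) and 0.952 of that outside both. The ratio to protein-coding bodies was 0.517 for peaks at the lowest background and 0.943 for the 1107 lncRNA peaks above it, so the gap was small among the latter. It was below the protein-coding density on 15 of 16 chromosomes, with chromosome 6 (covered in part) the exception at 38.6 against 33.4 peaks per Mb. Against sequence in neither kind of body it was higher on 5 of 16 chromosomes, so the direction was mixed.

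**Figure D2:**
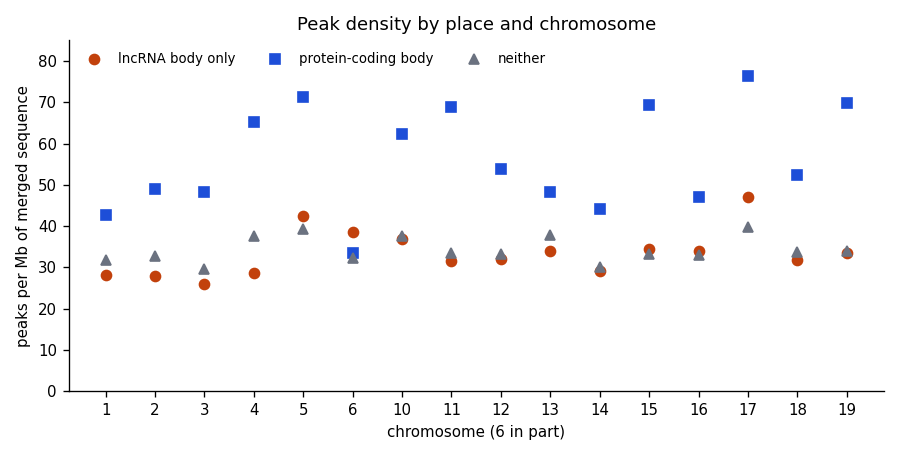
Peaks per Mb on each chromosome in lncRNA bodies outside protein-coding genes (circles), in protein-coding bodies (squares) and in neither (triangles). The circles, from 26.1 on chromosome 3 to 47.0 on chromosome 17, lie near the triangles and below the squares except on chromosome 6.

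The comparison was repeated by distance from protein-coding genes. Within 5 kb of such a gene, lncRNA bodies held 34.2 peaks per Mb and other sequence 33.5. Between 5 and 20 kb the values were 41.0 and 47.4, between 20 and 100 kb 38.2 and 40.8, and beyond 100 kb 24.3 and 26.6. Both kinds of sequence were densest between 5 and 20 kb and poorest beyond 100 kb. CpG number over gene bodies was not used here, and its part in these densities was not tested.

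lncRNA genes are short, and a long gene has more room for a peak. The median body was 8.23 kb for lncRNA genes (outside protein-coding bodies) and 18.6 kb for protein-coding genes, of which 64.3% had a peak against 31.9% of lncRNA genes. Within classes of length the gap stayed: 21.1% against 45.1% from 3 to 10 kb, 39.1% against 68.1% from 10 to 30 kb, and 69.8% against 84.7% from 30 to 100 kb. Under 1 kb the intervals overlapped (5.82% and 7.10%), as they did from 300 kb on, where all 20 lncRNA genes and 432 of 433 protein-coding genes had a peak. Of the 2496 lncRNA genes with a peak, 1487 had exactly 1, 834 had 2 to 4 and 175 had 5 or more.

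**Figure D3:**
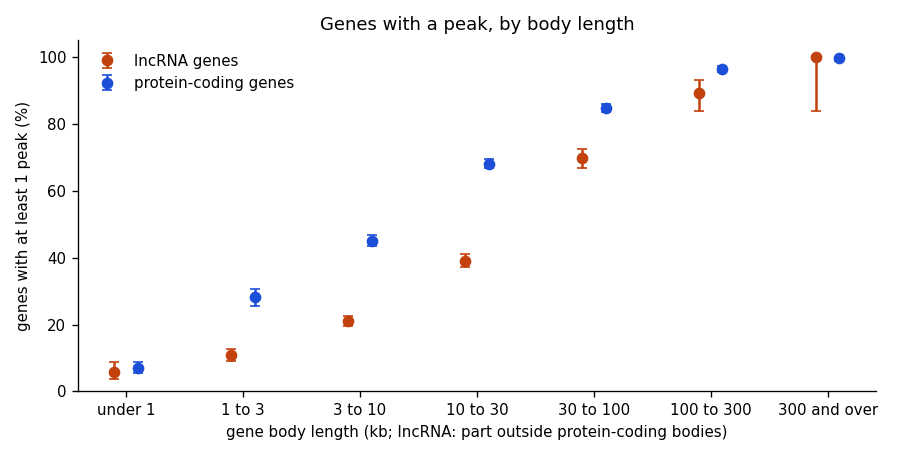
Share of genes with at least 1 peak, by body length in kb, with 95% Wilson intervals (counting error only). lncRNA genes lie below protein-coding genes from 1 to 300 kb, for example at 39.1% against 68.1% between 10 and 30 kb.

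Kinds of lncRNA gene were then compared by how they are named. A peak was found in 31.5% of 6181 models named Gm with a number, in 35.7% of 1170 Rik clones and in 35.2% of 165 other named genes. The share was 27.9% of 122 genes named as opposite-strand or antisense, 24.0% of 25 small RNA hosts and 22.4% of 156 LOC models. Relative to length, the other named genes held 45.1 peaks per Mb and the Gm models 32.4.

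The peaks themselves were set beside those of protein-coding bodies in size, fold and background. Over all backgrounds the median width was 388 bp (quartiles 252 and 545) against 393 bp, a difference of -5 bp with an interval from -12.3 to 4.49. Within each class of background the lncRNA peaks were narrower, by a median difference of -28 bp at the lowest and of -22 bp above it. Widths over 1 kb were found in 2.32% of lncRNA peaks and 4.10% of peaks in protein-coding bodies. The median pileup was 114 reads against 115 over all backgrounds, 89 against 99 at the lowest and 325 against 327 above it. The median fold was 12.2 against 13.7, a difference of -1.49 (interval -1.84 to -1.16), and it was lower on 15 of 16 chromosomes. At the lowest background alone the median folds were 12.2 and 13.6.

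Raised backgrounds belonged to 1107 of the lncRNA peaks, 24.2% (Wilson interval 23.0% to 25.5%), against 14.9% of peaks in protein-coding bodies and 37.9% of peaks in neither. The difference from protein-coding bodies was 9.31 percentage points (interval 8.05 to 10.6), with the same direction on 15 of 16 chromosomes. The share was below that of peaks in neither kind of body on 16 of 16. A fold under 5 was found in 3.15% of lncRNA peaks and 1.81% of peaks in protein-coding bodies. lncRNA peaks also lay farther apart, since 18.2% had another peak within 1 kb, against 28.1% in protein-coding bodies.

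Starts of lncRNA genes were next set beside starts of protein-coding genes, with every peak counted whatever body it lay in. Here 5897 lncRNA starts (of 4834 genes) whose window touched no protein-coding body and 15402 protein-coding starts (of 12547 genes) were used. A gene can thus enter with several starts, and 1 peak can lie at more than 1 of them. lncRNA starts were richer in peaks than their surroundings: 77.0 peaks per Mb within 500 bp, against 50.3 from 5 to 10 kb upstream and 44.3 from 5 to 10 kb downstream. Protein-coding starts held 19.2 peaks per Mb in the 500 bp upstream, 63.0 in the 500 bp downstream and 79.1 from 5 to 10 kb into the gene. From 500 to 1000 bp downstream the densities were 50.2 and 41.6 peaks per Mb.

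**Figure D4:**
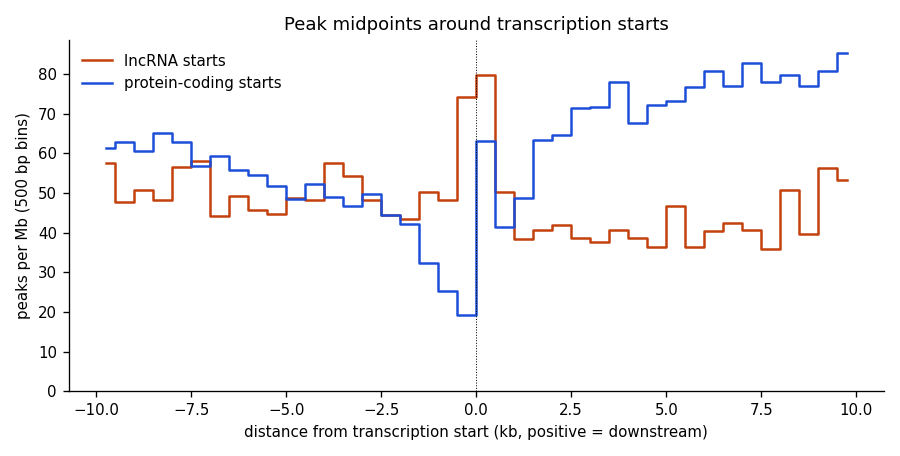
Peak midpoints per Mb in bins of 500 bp around the starts of lncRNA genes (orange) and protein-coding genes (blue), with positive distances downstream. The lncRNA line is highest in the bins on either side of the start, at 74.3 and 79.7, where the protein-coding line has 19.2 and 63.0.

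The promoter windows differed in CpG number as well. lncRNA windows had a median of 3 CpGs in 300 bp (quartiles 2 and 6), and protein-coding windows had 14 (quartiles 4 and 25). At least 1 CpG was present in 91.9% and 96.1% of windows. A peak overlapped 325 lncRNA windows (5.51%) and 456 protein-coding windows (2.96%), or 3.67% of all windows. The windows with a peak had a median of 9 CpGs in lncRNA genes and 8.5 in protein-coding genes.

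When windows with like CpG numbers were compared, the difference was largest in those with 11 to 25 CpGs. Only lncRNA windows were left out for touching a protein-coding body, so the 2 sets were not filtered alike. With 11 to 15 CpGs, 79 of 256 lncRNA windows had a peak (30.9%, interval 25.5% to 36.8%), against 79 of 1507 protein-coding windows (5.24%, 4.23% to 6.49%). Over both kinds together the share was 8.96%. The difference was 25.6 percentage points (20.1 to 31.6), and the lncRNA share was the higher on each of the 15 chromosomes with windows. Numbers per chromosome were small, from 6 lncRNA windows on chromosome 16 to 54 on chromosome 2. On chromosome 15 the shares were close, at 25% of 12 lncRNA windows against 21.7%. With 16 to 25 CpGs the shares were 19.3% and 1.54%. Below 11 CpGs the lncRNA and protein-coding shares were closer. With 6 to 10 CpGs they were 13.6% (interval 11.8% to 15.8%) and 10.3% (9.07% to 11.7%), so the intervals did not overlap. With 3 to 5 CpGs the lncRNA share was the lower, at 2.11% against 3.50%. From 26 CpGs on, only 1 of 70 lncRNA windows and 25 of 3804 protein-coding windows had a peak (1.43% and 0.657%).

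The peaks over windows with 11 to 15 CpGs had a median fold of 17.4 in lncRNA genes (77 peaks) and 18.4 in protein-coding genes (77 peaks). Raised backgrounds were found in 29.9% and 37.7% of them. Without models named Gm with a number, 13 of 85 lncRNA windows had a peak (15.3%, interval 9.16% to 24.4%), so the difference was smaller, at 10.1 percentage points. Of 12 lncRNA windows that shared at least 30% of their 12-base words with another, 10 had a peak, and without them the lncRNA share was 28.3%. With only the most upstream window of each gene, the shares were 34.6% in lncRNA and 5.21% in protein-coding genes. Among lncRNA windows at least 5 kb from protein-coding genes the share was 35.9%, higher than among all those used. The part of the filter in the difference was not tested.

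**Figure D5:**
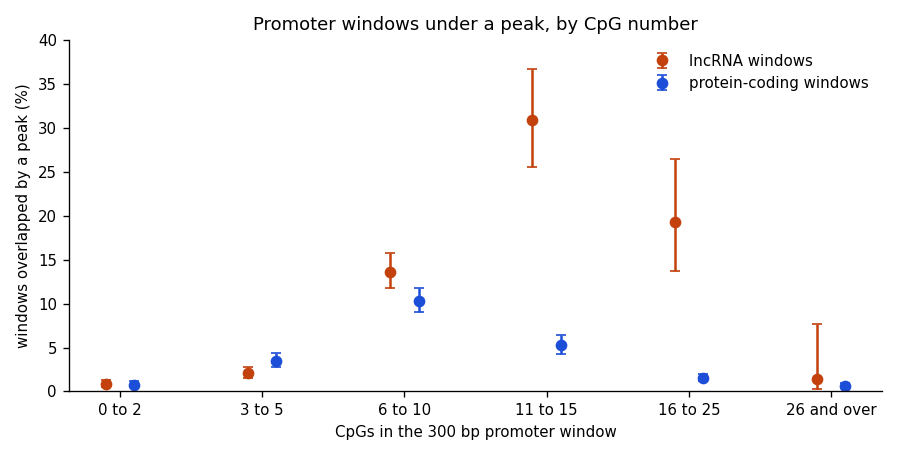
Share of 300 bp promoter windows overlapped by a peak, by number of CpGs in the window, with 95% Wilson intervals (counting error only). lncRNA windows (orange) reach 30.9% at 11 to 15 CpGs, where protein-coding windows (blue) are at 5.24%, and both are under 2% from 26 CpGs on.

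Of the 50 listed lncRNA genes with a promoter window, 2 had a peak there, Meg3 and Airn. Of the promoter windows compared above, 5.51% of those of lncRNA genes and 3.67% of all had a peak. Those shares count windows rather than genes and leave out lncRNA windows that touch a protein-coding body, so they compare only roughly. The count of 2 is not read as a trait of the listed genes. The Meg3 window had 13 CpGs, as shown above. The Airn window had 3 CpGs and touched the Igf2r body, so it entered none of the shares above. Windows without a peak included that of Malat1 with 10 CpGs, those of Lncpint with 18 and Miat with 25, and that of Tug1 with 37.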

How the data were processed

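MBD-seq was performed on 6 chondrocyte cultures (3 control, 3 cKO). A series-wide list of peaks was the sole file analysed. Per the submitters' processing notes, fastp, Bowtie2 and MACS2 were used with mm10/GRCm38; their versions and settings are not given in the sources used here. The deposited peak names record a Samtools merge of 3 datasets ahead of peak calling. The 10 deposited columns follow the narrowPeak layout: the authors' fold is a ratio over background, each peak has the authors' −log10 p and −log10 q, and a deposited score equal to 10 times the −log10 q, cut to a whole number. The lowest −log10 q was 20.0. The copy analysed here was cut off on chromosome 6, where its last line was incomplete and not used. Peaks lay on 16 chromosomes, on chromosome 6 only up to 88818859, and 143 peaks on unplaced contigs were not placed. Depth per sample is unknown.

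Gene bodies and biotypes came from RefSeq on GRCm38.p6, which has no exons or introns in the table used, so no peak was called exonic or intronic. Pileup and background were recovered from fold = (pileup + 1)/(background + 1) and a Poisson p; 99.97% of peaks matched a whole pileup within 0.01 reads (all but 1 of the lncRNA peaks). On data simulated with the same formula and Poisson p, the recovery gave the exact pileup for 100% of 5000 peaks. That checks the solving step alone and not how the authors' caller formed its values. A background counted as above the lowest (6.37 reads) past a tolerance of 0.001 reads. Densities use merged bodies, with sequence outside genes counted from 3 Mb to the last peak of a chromosome. Promoter windows were available for 7420 lncRNA genes; 3094 lncRNA windows touched a protein-coding body and were left out, and chromosome 18 windows were not used here. Overlapping + and − windows were reverse complements in 982 of 982 cases.

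The members and gene lists were chosen with earlier results of these data known. Named genes were the 10 lncRNA genes with most peaks per length (at least 5 peaks and 10 kb), the 10 with most peaks, those with the 5 highest folds, the listed genes, and the 3 densest protein-coding genes. Of 101 listed symbols, 16 were on sequence not analysed here, 5 had another biotype, 5 had no body outside protein-coding genes and 4 were not in the table. Promoter comparisons were added after seeing the data. Python 3.11.15, numpy 2.4.6, pandas 2.3.3, scipy 1.17.1 and matplotlib 3.10.9 were used.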

Additional observations from a re-analysis of the deposited data

Results flagged for a closer look

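Signal also lay in peaks that the comparisons above did not use as a set of their own. The 1844 peaks in both a lncRNA and a protein-coding body had a median width of 368.5 bp and a median fold of 13.2. A raised background was found in 12.6% of them (Wilson interval 11.1% to 14.2%), against 14.995% of the 42573 peaks in protein-coding bodies without a lncRNA gene. The 143 peaks on unplaced contigs had a median fold of 12.7, and 75 of them (52.4%) had a raised background.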

How the results depend on the processing

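No paired analysis was possible because peaks came with merged values alone, and no replicate could be left out for the same reason. The count of 4573 lncRNA peaks became 2140 for a −log10 q from 100 up, 2103 at or above the median fold, 1107 above the lowest background alone and 1182 without Gm-numbered genes, as each leaves out peaks or genes. The density ratio to protein-coding bodies (0.580) stayed below 1 in all 11 alternatives: 0.562 for a −log10 q from 100 up, 0.508 at or above the median fold, 0.517 at the lowest background alone, 0.943 above it alone, and 0.557 for lncRNA bodies at least 5 kb from protein-coding genes. The other 6 lay between 0.571 and 0.598. The fold difference stayed negative in all 11, with -1.90 and -2.44 for a −log10 q from 50 and from 100 up, and -2.33 above the lowest background. The width difference was 6 bp for a −log10 q from 100 up, -13 bp after merging within 500 bp, and -28 and -22 bp at and above the lowest background. The difference in raised backgrounds was 13.3 and 17.9 points at a −log10 q of at least 50 and 100, and 8.002 points after merging. The promoter difference (25.6 points) was 10.1 without Gm-numbered genes, 16.5 for a −log10 q from 100 up, 18.6 at the lowest background alone and 6.99 above it alone; the other 5 alternatives gave 21.2 to 30.7. The promoter settings by background kept the same 256 lncRNA and 1507 protein-coding windows and counted only part of the peaks, so smaller differences are built in. The shares were 21.9% against 3.25% at the lowest background and 8.98% against 1.99% above it. What else causes these shifts was not tested. The choice of minimums changed which genes ranked as densest: Gm43305 led with 9.90 peaks per 10 kb at a minimum of 5 kb, Gm33591 with 3.58 at 20 kb or 10 peaks, and 7, 2 and 1 of the 10 genes were shared; at a minimum of 3 peaks 7 were shared and Gm51627 still led.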
